A study of Mus musculus with 12 samples.

Results

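The 7 homeobox genes of blood progenitors, namely Hoxa5, Hoxa7, Hoxa9, Hoxa10, Hoxb4, Meis1 and Pbx3, were followed through the RNA sequencing of C57BL/6 mouse bone marrow. The genes were chosen by name, with earlier results of these data known. All 7 of 7 were found among the 28987 genes of the deposited table. The 12 libraries formed 6 pairs of replicates. CD117 (Kit), a growth factor receptor on the cell surface, was used to select stem and progenitor cells (HSPC) from CBL mutant, RUNX1 mutant, CBL/RUNX1 double mutant and wild type marrow. Ly6G+ myeloid cells were sorted from double mutant and wild type marrow. The ubiquitin ligase CBL marks activated growth factor receptors for removal, and the DNA-binding factor RUNX1 guides how blood cells form. Mutant cells were sorted as a clone, so mutant and wild type groups may differ in preparation as well as in genotype, and these cannot be told apart. The labels name no allele, vector, age or sex. Marrow was taken from individual mice, but which libraries share a mouse is not stated, so p-values measure the spread between libraries. Values are in TPM, which give how much of all transcripts in a library a gene makes up, corrected for gene length, and the depth behind them is unknown.

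HOX genes encode transcription factors that lie in clusters, and genes of the HoxA and HoxB clusters are active in blood stem and progenitor cells and are shut off as cells mature. Their proteins bind DNA together with partners of the TALE homeobox class, to which the MEIS and PBX proteins belong. High Hoxa9 with Meis1 and Pbx3 is known from acute myeloid leukaemia, above all from leukaemia with rearranged KMT2A, and Hoxb4 is known for expanding blood stem cells when it is forced. Kmt2a complexes keep HOX genes on and Polycomb complexes keep them off.

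In the GRCm38 annotation (GENCODE vM21) the 4 HoxA members lie on the minus strand of chromosome 6. Hoxa5 (ENSMUSG00000038253) spans chr6:52201754-52204587, Hoxa7 (ENSMUSG00000038236) chr6:52214491-52221854, Hoxa9 (ENSMUSG00000038227) chr6:52223100-52231089 and Hoxa10 (ENSMUSG00000000938) chr6:52231197-52240854. Hoxb4 (ENSMUSG00000038692) lies on the plus strand at chr11:96318267-96321638. Meis1 (ENSMUSG00000020160) lies on the minus strand at chr11:18879817-19018985, and Pbx3 (ENSMUSG00000038718) on the minus strand at chr2:34171457-34373142. The Hoxa7 exons share 586 of 2876 bases with the antisense RNA Hoxaas3, and the Meis1 exons share 896 of 10532 bases with the antisense RNA Gm16140. On the same strand, the Meis1 exons share 1029 bases with Gm37818, and the Hoxa9 exons share 85 of 5580 bases with the microRNA gene Mir196b. Strand use in the counting is not given in the sources used here. Reads from the shared bases therefore cannot be told apart, and for pairs on the same strand this holds whatever the strand use.

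The promoter windows of 4 members are shown because one of the mutated genes encodes a DNA-binding factor, and because these members are the most abundant of those with a promoter entry. Pbx3 has no entry and is not shown. Each window holds the 250 bases before the RefSeq start of transcription (GRCm38.p6), 5′ to 3′ on the strand of the gene. The windows are chr6:52218574-52218823 (minus strand) for Hoxa7, chr6:52227371-52227620 (minus strand) for Hoxa9, chr11:96318017-96318266 (plus strand) for Hoxb4 and chr11:19018970-19019219 (minus strand) for Meis1. Capitals mark a match to a RUNX motif.
Hoxa7: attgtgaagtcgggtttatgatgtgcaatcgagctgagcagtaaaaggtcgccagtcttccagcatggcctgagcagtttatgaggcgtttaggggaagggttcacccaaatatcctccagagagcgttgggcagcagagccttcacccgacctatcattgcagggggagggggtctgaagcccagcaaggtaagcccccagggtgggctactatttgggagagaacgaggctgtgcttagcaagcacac
Hoxa9: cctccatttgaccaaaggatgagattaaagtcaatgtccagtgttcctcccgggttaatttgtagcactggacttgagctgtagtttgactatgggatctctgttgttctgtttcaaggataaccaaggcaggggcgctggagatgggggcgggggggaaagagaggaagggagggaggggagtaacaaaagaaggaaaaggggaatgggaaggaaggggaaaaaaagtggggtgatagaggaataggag
Hoxb4: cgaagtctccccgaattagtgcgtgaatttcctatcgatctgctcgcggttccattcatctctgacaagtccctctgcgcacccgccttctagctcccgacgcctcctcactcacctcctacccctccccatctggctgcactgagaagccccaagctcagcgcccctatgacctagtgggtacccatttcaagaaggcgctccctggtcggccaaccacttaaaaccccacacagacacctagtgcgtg
Meis1: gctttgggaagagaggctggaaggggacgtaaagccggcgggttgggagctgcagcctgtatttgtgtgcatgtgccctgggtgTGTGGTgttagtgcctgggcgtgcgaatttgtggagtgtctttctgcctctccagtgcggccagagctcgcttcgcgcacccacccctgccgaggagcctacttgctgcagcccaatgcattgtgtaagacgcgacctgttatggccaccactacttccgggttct
The 3 motifs were searched on both strands, the RUNX motif as TGTGGT or TGCGGT, the MEIS motif as TGACAG and a PBX-HOX motif as TGATTTA, and no 2 of them can share a match. Of the 6 members with a promoter entry, Meis1 held 1 match to the RUNX motif, at position -166 from the start, and no other window held a match to any of the 3. The RUNX motif occurs in 18.6% of 32851 windows of the same length, the MEIS motif in 15.9% and the PBX-HOX motif in 2.61%. A match says only that these letters are present.

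Some libraries stood apart, and this touches every member. The 2 libraries of RUNX1 mutant HSPC, and the 2 of double mutant Ly6G+ cells, differed from each other far more than other pairs did. The SD over genes of the log2 difference between the 2 libraries of a group was 0.71 in RUNX1 mutant HSPC and 0.30 in wild type HSPC, and it was 1.0 in double mutant Ly6G+ and 0.36 in wild type Ly6G+ cells. All 15 neutrophil markers were detected in every HSPC library, and they took 26.7% to 32.6% of TPM in CBL mutant, 15.4% and 33.0% in RUNX1 mutant, 9.55% to 10.9% in double mutant and 34.3% to 36.8% in wild type HSPC. Cbl was at 73.7 to 115 TPM in the HSPC groups with mutant CBL, against 17.9 to 32.1 TPM in the other HSPC groups, and Runx1 was at 170.2 and 45.3 TPM in RUNX1 mutant and 248 to 257 TPM in double mutant HSPC, against 11.3 to 16.4 TPM in the others. Summed TPM of 14 progenitor markers was 491 to 534 in CBL mutant, 1811 and 528 in RUNX1 mutant, 703 to 921 in double mutant and 401 to 471 in wild type HSPC. In neutrophil markers, progenitor markers and Runx1 the second RUNX1 mutant library lay nearer to wild type than the first did, and the spread of a pair does not show which of its libraries stands apart. Fewer cells of a type and less RNA per cell cannot be told apart in such bulk libraries, and the part of cell makeup in the differences of the 7 genes was not tested.

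Hoxa7 and Hoxa9, HoxA factors known from myeloid leukaemia, were the most abundant HOX members in CBL mutant and double mutant HSPC. Hoxa9 was at 19.2 and 14.2 TPM in CBL mutant, 11.1 and 2.83 TPM in RUNX1 mutant, 11.7 and 8.51 TPM in double mutant, and 4.10 and 3.21 TPM in wild type HSPC. Both CBL mutant libraries lay above all other HSPC libraries, both double mutant libraries lay above wild type, and the 2 RUNX1 mutant libraries enclosed the wild type pair. Hoxa7 was at 13.1 and 7.14 TPM in CBL mutant, 18.02 and 3.94 TPM in RUNX1 mutant, 13.7 and 12.8 TPM in double mutant, and 2.77 and 3.30 TPM in wild type HSPC. Each mutant library exceeded both wild type libraries in deposited TPM, and the first RUNX1 mutant library was the highest, but after scaling the RUNX1 mutant pair overlapped wild type. Hoxa5, which helps set myeloid against erythroid fate, was lower throughout. It was at 1.89 and 1.47 TPM in CBL mutant, 2.36 and 0.529 TPM in RUNX1 mutant, 1.69 and 0.881 TPM in double mutant, and 0.203 and 0.391 TPM in wild type HSPC, again with no overlap between any mutant group and wild type. Hoxa10, a neighbour of Hoxa9 that also acts in myeloid progenitors, reached at most 0.733 TPM in any library and was too low to be tested.

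**Figure D1:**
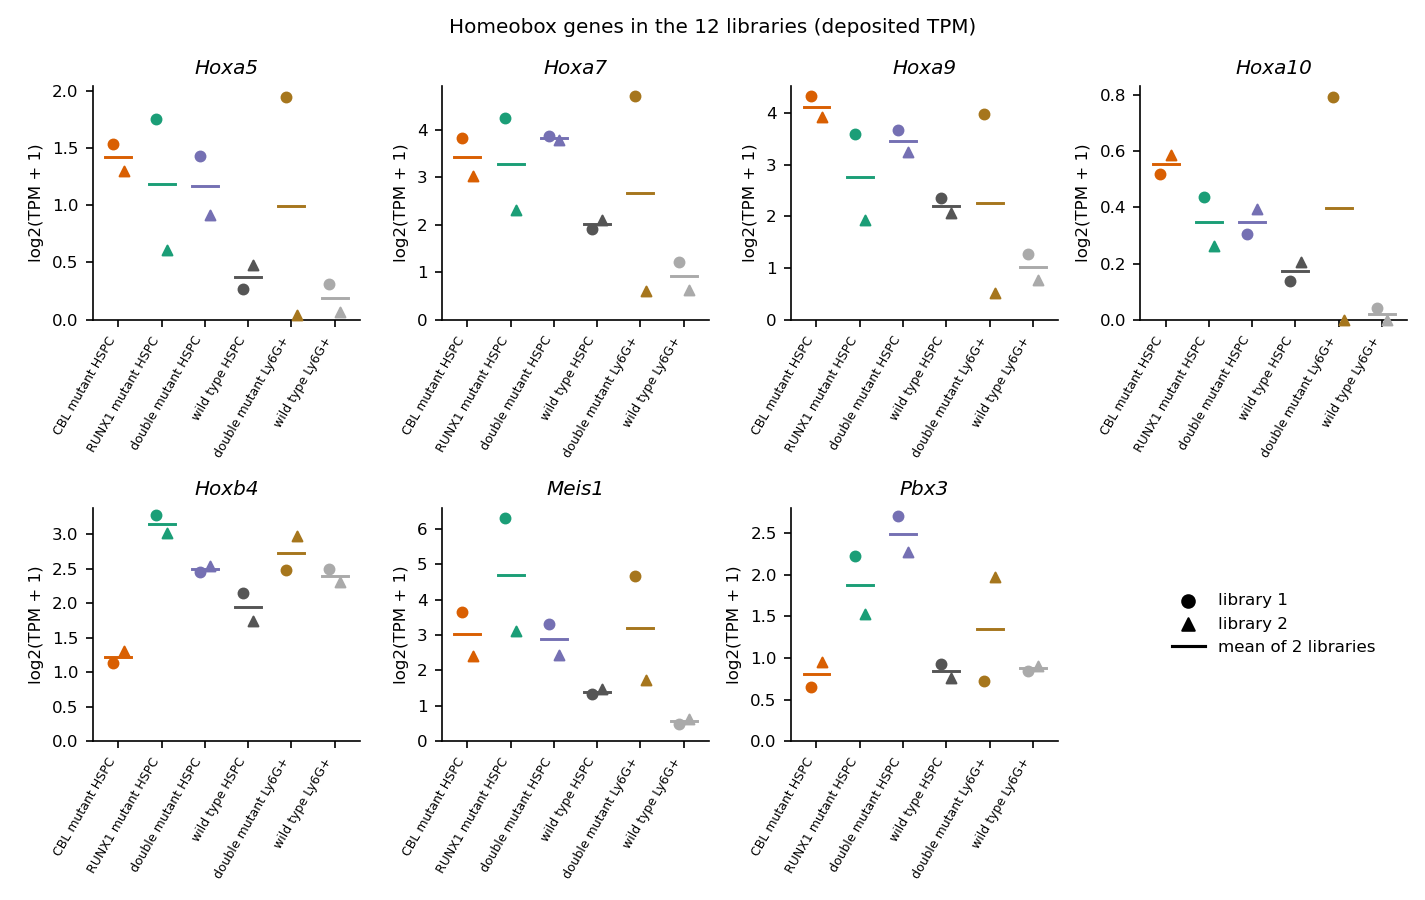
Log2 of deposited TPM + 1 of the 7 genes, 1 panel each, in every library (circle, library 1; triangle, library 2; bar, mean of the log values of both). The 6 groups run along the horizontal axis. Hoxa7 and Hoxa9 lie above wild type in both CBL mutant and both double mutant HSPC libraries, Hoxb4 is lowest in CBL mutant HSPC, and Pbx3 is highest in double mutant HSPC.

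No HoxA difference from wild type in HSPC passed the test. Tests were made with limma on log2(TPM + 1) after scaling between libraries, with Benjamini-Hochberg adjustment over all 12421 genes tested, and a gene was called at an adjusted p under 0.05. A fold change is on this scale, which understates the change of genes near 1 TPM. The 6 members other than Hoxa10 passed the filter on low values in HSPC. The log2 fold change of Hoxa9 was 1.59 ± 0.38 (SE) for CBL mutant HSPC (adjusted p = 0.189), 0.10 ± 0.38 for RUNX1 mutant HSPC (adjusted p = 0.904) and 0.72 ± 0.38 for double mutant HSPC (adjusted p = 0.222), with n = 2 a group throughout. For Hoxa7 it was 1.09 ± 0.48 for CBL mutant (adjusted p = 0.492), 0.81 ± 0.48 for RUNX1 mutant (adjusted p = 0.407) and 1.30 ± 0.48 for double mutant HSPC (adjusted p = 0.109). For Hoxa5 it was 0.92 ± 0.33 for CBL mutant (adjusted p = 0.399), 0.58 ± 0.33 for RUNX1 mutant (adjusted p = 0.390) and 0.56 ± 0.33 for double mutant HSPC (adjusted p = 0.274). These 3 comparisons share the wild type libraries. The SE is pooled over all 4 HSPC groups, and without either RUNX1 mutant library Hoxa9 passed in CBL mutant HSPC (adjusted p = 0.00521 without the first and 0.00504 without the second), while its adjusted p ranged between 0.00323 and 0.975 over all alternatives. In double mutant HSPC, Hoxa7 (adjusted p = 0.0106 without the first RUNX1 mutant library and 0.0111 without the second; 0.000761 to 0.467 over all alternatives) and Hoxa9 (adjusted p = 0.0177 and 0.0170; 0.00794 to 0.631) passed as well. With the second RUNX1 mutant library left out, Hoxa5 was at 0.99, Hoxa7 at 1.54 and Hoxa9 at 0.70 in RUNX1 mutant HSPC. With the first left out they were at 0.17, 0.07 and -0.51. Each of these fits leaves a lone RUNX1 mutant library, without a spread of its own, so only the fold changes are given.

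Against wild type, no member was called in CBL mutant HSPC, where 0.556% of all genes were called, and none in RUNX1 mutant HSPC, where 0.0483% were. At an unadjusted p under 0.05, 3 members passed in CBL mutant HSPC (10.6% of all genes) and 3 in RUNX1 mutant HSPC (16.1% of all genes). In double mutant HSPC 2 of the 6 passed, near the share of all genes (34%). Pbx3 alone was called in double mutant HSPC, 1 of 6 tested members, beside 10.9% of all genes called in either direction and 4.77% called higher. After scaling, both libraries lay above both wild type libraries for 4 of the 6 members in CBL mutant (26.2% of all genes), for 4 in RUNX1 mutant (22.8%) and for 5 in double mutant HSPC (37.6%). Both libraries lay below both wild type libraries for 2 of the 6 in CBL mutant HSPC, Hoxb4 and Pbx3 (30.4% of all genes). The median log2 fold change of the 6 members was 1.01 for CBL mutant, 0.75 for RUNX1 mutant and 0.87 for double mutant HSPC, beside -0.02, -0.03 and 0.035 over all genes tested in the same comparisons. Hoxa5 and Pbx3 were under 1 TPM in both wild type HSPC libraries and passed the filter on low values only through mutant libraries. The counts, the medians and the Pbx3 call include them, so they are no independent support for a rise over wild type. Without scaling the median of all genes moves to 0.33 for CBL mutant, 0.45 for RUNX1 mutant and 0.56 for double mutant HSPC, so deposited TPM of mutants are read against that shift.

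Hoxb4, the HoxB factor of stem cell self-renewal, was ordered in another way. It was at 1.19 and 1.48 TPM in CBL mutant, 8.72 and 7.12 TPM in RUNX1 mutant, 4.45 and 4.81 TPM in double mutant, and 3.42 and 2.35 TPM in wild type HSPC. The 4 groups did not overlap in deposited TPM, with RUNX1 mutant highest and CBL mutant lowest, although double mutant and wild type overlapped after scaling. Hoxb4 was called higher in double mutant than in CBL mutant HSPC, with a log2 fold change of 1.09 ± 0.20 (adjusted p = 0.0376). Its difference from wild type was -1.02 ± 0.20 for CBL mutant (adjusted p = 0.114), 0.77 ± 0.20 for RUNX1 mutant (adjusted p = 0.213) and 0.07 ± 0.20 for double mutant HSPC (adjusted p = 0.841). Between double mutant and RUNX1 mutant HSPC it was -0.71 ± 0.20 (adjusted p = 0.0676). It was -0.80 without the first RUNX1 mutant library and -0.61 without the second, each with a lone library left in that group. Without either RUNX1 mutant library the difference of CBL mutant from wild type passed (adjusted p = 0.0257 without the first and 0.0265 without the second; 0.0169 to 0.789 over all alternatives).

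Hoxb3, the neighbour of Hoxb4 in the cluster, stood in the same order of groups. It was at 0.130 and 0.437 TPM in CBL mutant, 6.23 and 3.75 TPM in RUNX1 mutant, 3.35 and 3.31 TPM in double mutant, and 1.496 and 1.148 TPM in wild type HSPC. Again no 2 groups overlapped. It was called higher in double mutant than in CBL mutant HSPC (log2 fold change 1.58 ± 0.21, adjusted p = 0.0168), as was the antisense RNA Hoxb3os of that locus (1.46 ± 0.22, adjusted p = 0.0217). Of 33 other HOX genes in the table, 30 reached 1 TPM in no library, 10 of them at 0 in every library. The 3 that did reach it in at least 2 libraries were Hoxb3, Hoxa3 and Hoxa6. Hoxa6 was at 1.60 and 1.21 TPM in CBL mutant, 1.90 and 0.476 TPM in RUNX1 mutant, 0.797 and 1.07 TPM in double mutant, and 0.397 and 0.332 TPM in wild type HSPC. Hoxa3 was at 1.18 and 0.398 TPM in CBL mutant, 1.37 and 0.284 TPM in RUNX1 mutant, 0.561 and 0.466 TPM in double mutant, and 0.134 and 0.0837 TPM in wild type HSPC. No difference of Hoxa3 or Hoxa6 was called.

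The HoxA and HoxB genes were also set against each other within a library, where no scaling enters, as the summed TPM of Hoxa5, Hoxa7 and Hoxa9 over that of Hoxb3 and Hoxb4. This ratio, chosen after the values were seen and given without a test, was 26.0 and 11.9 in CBL mutant, 2.11 and 0.671 in RUNX1 mutant, 3.47 and 2.73 in double mutant, and 1.44 and 1.97 in wild type HSPC. It was far higher in both CBL mutant libraries than in any other HSPC library, and double mutant HSPC lay between CBL mutant and wild type. The summed TPM of the named HoxA genes exceeded that of the named HoxB genes in 7 of the 8 HSPC libraries, the second RUNX1 mutant library being the exception. More HoxA than HoxB genes enter the sums, which favours the HoxA side.

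**Figure D2:**
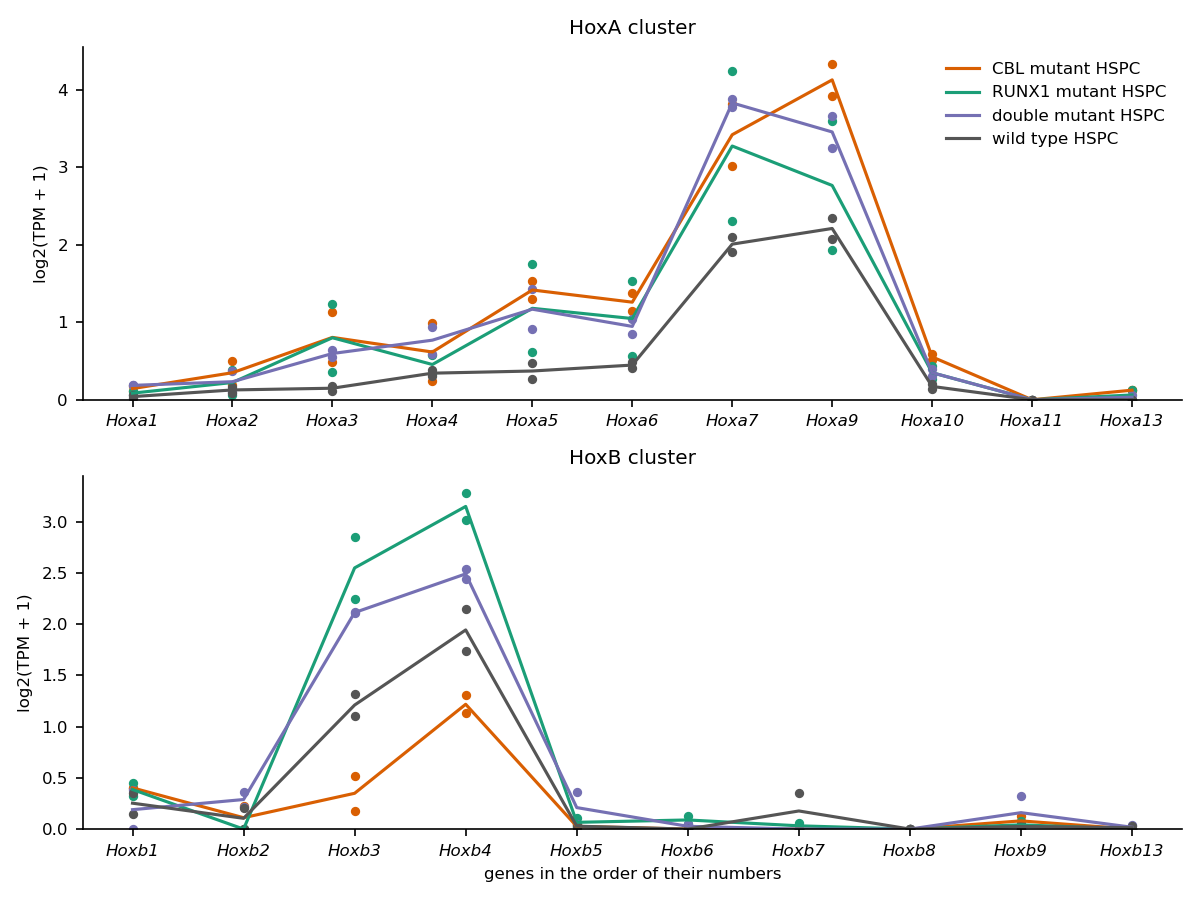
Log2 of deposited TPM + 1 of the genes of the HoxA cluster (upper panel) and the HoxB cluster (lower panel) in the 4 HSPC groups, with points for single libraries and lines through the group means of the log values. The HoxA signal sits on Hoxa7 and Hoxa9, and the HoxB signal on Hoxb3 and Hoxb4, where RUNX1 mutant HSPC are highest and CBL mutant HSPC lowest.

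Meis1, the TALE partner that acts with Hoxa9, was higher in every mutant HSPC library than in wild type, but its spread was wide. It was at 11.4 and 4.31 TPM in CBL mutant, 78.2 and 7.60 TPM in RUNX1 mutant, 8.91 and 4.45 TPM in double mutant, and 1.51 and 1.75 TPM in wild type HSPC. None of the 6 mutant libraries overlapped the wild type pair, and the first RUNX1 mutant library was far above its partner. That library also held most Kit RNA, at 229.5 TPM against 26.2 TPM in its partner. The difference from wild type was 1.35 ± 0.83 for CBL mutant (adjusted p = 0.590), 2.89 ± 0.83 for RUNX1 mutant (adjusted p = 0.240) and 1.03 ± 0.83 for double mutant HSPC (adjusted p = 0.421), in log2. Without the first RUNX1 mutant library the RUNX1 mutant value was 1.54, and without the second it was 4.24. Each of these fits leaves a lone RUNX1 mutant library, without a spread of its own. Within a library, Meis1 over Kit, a ratio chosen after the values were seen, was 0.304 and 0.102 in CBL mutant, 0.341 and 0.290 in RUNX1 mutant, 0.175 and 0.117 in double mutant, and 0.0588 and 0.0716 in wild type HSPC. All 6 mutant libraries lay above wild type in this ratio. Other members over Kit were ordered differently. Hoxa9 over Kit was 0.0484 and 0.108 in RUNX1 mutant, against 0.160 and 0.131 in wild type HSPC, and Hoxb4 over Kit was 0.0380 and 0.272 in RUNX1 mutant, against 0.134 and 0.0960 in wild type HSPC.

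**Figure D3:**
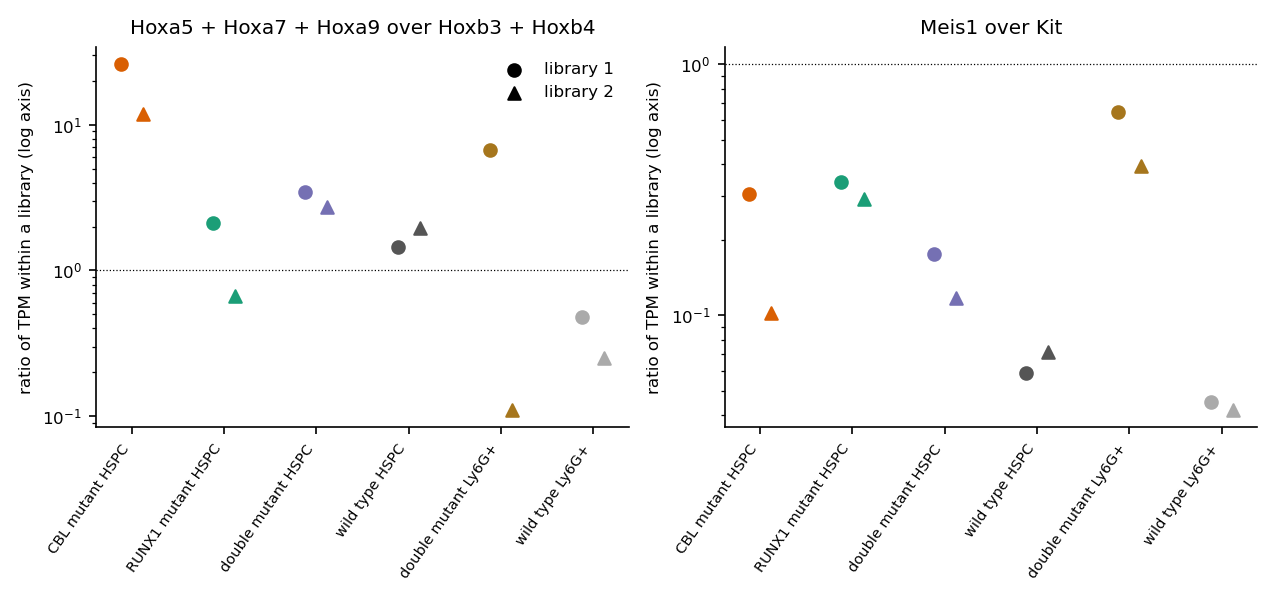
Ratios of deposited TPM within a library on a logarithmic axis, 1 point per library (circle, library 1; triangle, library 2), for Hoxa5, Hoxa7 and Hoxa9 over Hoxb3 and Hoxb4 (left) and for Meis1 over Kit (right), with a dotted line at equal amounts. The CBL mutant libraries are highest for the first ratio (26.0 and 11.9), and for the second all 6 mutant HSPC libraries lie above wild type HSPC (0.0588 and 0.0716), as the double mutant Ly6G+ libraries (0.647 and 0.392) do above wild type Ly6G+ (0.0454 and 0.0420).

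Pbx3, a TALE partner of HOX proteins, rose in double mutant HSPC. It was at 0.574 and 0.938 TPM in CBL mutant, 3.66 and 1.90 TPM in RUNX1 mutant, 5.53 and 3.82 TPM in double mutant, and 0.898 and 0.697 TPM in wild type HSPC. Double mutant libraries lay above all others, RUNX1 mutant libraries lay above CBL mutant and wild type, and CBL mutant overlapped wild type in deposited TPM but lay wholly below it after scaling. The log2 fold change of double mutant HSPC was 1.27 ± 0.23 against wild type (adjusted p = 0.0281) and 1.49 ± 0.23 against CBL mutant HSPC (adjusted p = 0.0238). Against RUNX1 mutant HSPC it was 0.54 ± 0.23 (adjusted p = 0.174). RUNX1 mutant HSPC differed from wild type by 0.72 ± 0.23 (adjusted p = 0.252). That value was 0.57 without the first and 0.875 without the second RUNX1 mutant library, each with a lone library left in that group. CBL mutant HSPC differed from wild type by -0.23 ± 0.23 (adjusted p = 0.715). Pbx3 is under 1 TPM in each CBL mutant and wild type HSPC library, where the added 1 compresses the fold change. It passed the filter on low values in HSPC only through the RUNX1 mutant and double mutant libraries.

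Both calls of Pbx3 and that of Hoxb4 were lost when any 1 library of the CBL mutant, double mutant or wild type groups was left out, and in a fit of all 12 libraries. Pbx3 against wild type then had a log2 fold change between 1.11 and 1.42 with an adjusted p between 0.0578 and 0.183. Its adjusted p over all alternatives reached down to 0.00154. Hoxb4 against CBL mutant was also above the threshold with a pseudocount of 5 (adjusted p = 0.0558), with no filter (adjusted p = 0.0557), with a filter at 5 TPM (adjusted p = 0.0529) and with a replicate block (adjusted p = 0.051), within 0.00539 to 0.259 over all alternatives. Against CBL mutant HSPC, 2 of the 6 tested members were called higher, Pbx3 and Hoxb4, where 3.65% of all genes were called in either direction and 1.51% higher. After scaling, both members lay wholly above CBL mutant HSPC (34.7% of all genes did), and Hoxa5 and Hoxa9 lay wholly below (30%), with Hoxa9 at -0.87 ± 0.38 (adjusted p = 0.201, and 0.0134 without the first or 0.0128 without the second RUNX1 mutant library) and Hoxa5 at -0.36 ± 0.33 (adjusted p = 0.520). Between double mutant and RUNX1 mutant HSPC no member was called, where 9.08% of all genes were. Meis1 was at -1.87 ± 0.83 (adjusted p = 0.191), at -0.51 without the first RUNX1 mutant library and at -3.22 without the second. Without the first, Hoxa9 and Hoxa7 were both at 1.23, and without the second Hoxa9 was at 0.023 and Hoxa7 at -0.243. Each of these fits leaves a lone RUNX1 mutant library, without a spread of its own.

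**Figure D4:**
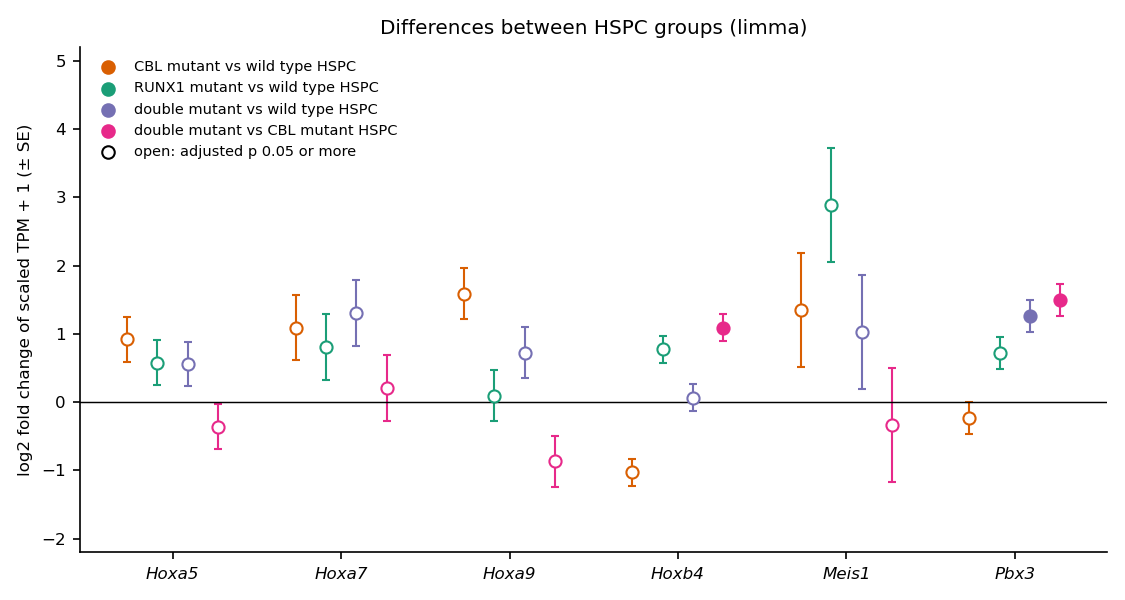
Log2 fold change ± SE of the 6 tested genes in HSPC for the CBL mutant, RUNX1 mutant and double mutant against wild type and for the double mutant against the CBL mutant, on the scaled log2(TPM + 1) scale with n = 2 libraries a group. Filled points are called at an adjusted p under 0.05, namely Pbx3 in double mutant HSPC against wild type (1.27) and against CBL mutant (1.49), and Hoxb4 against CBL mutant (1.09).

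Among other TALE genes, Tgif1, a TALE repressor, was at 29.5 and 24.5 TPM in double mutant, against 8.63 and 5.97 TPM in wild type HSPC, and was called higher (1.20 ± 0.28, adjusted p = 0.0427). It was also above wild type in both CBL mutant (24.4 and 19.0 TPM) and both RUNX1 mutant libraries (37.8 and 14.3 TPM), with log2 fold changes of 1.10 ± 0.28 (adjusted p = 0.219) and 1.07 ± 0.28 (adjusted p = 0.222) that were not called. Of 8 such genes 5 were tested in HSPC, and against wild type the double mutant had 1 called higher (Tgif1; 4.77% of all genes were), while the CBL mutant and RUNX1 mutant had none (0.556% and 0.0483% of all genes in either direction). The other 4 tested were Pbx2, Pbx4, Pknox1 and Tgif2, and Meis2 and Meis3 stayed under 0.158 TPM in every library.

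A non-additive term asked whether the double mutant differed from the sum of both single mutant changes. No member was called, where 0.0161% of all genes were, and 1 of 6 passed an unadjusted p under 0.05 (19.3% of all genes). That member was Meis1, with a term of -3.22 ± 1.18 in log2 (adjusted p = 0.209). The term of Pbx3 was 0.77 ± 0.33 (adjusted p = 0.261) and that of Hoxa9 was -0.96 ± 0.53 (adjusted p = 0.362). Without the first RUNX1 mutant library the term was -0.356 for Hoxa9 and -1.87 for Meis1. Without the second it was -1.57 for Hoxa9 and -4.57 for Meis1. Each of these fits leaves a lone RUNX1 mutant library, without a spread of its own.

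In Ly6G+ cells the 2 double mutant libraries disagreed for most members. Hoxa9 was at 14.8 and 0.435 TPM in double mutant, and 1.42 and 0.705 TPM in wild type Ly6G+ cells. Hoxa7 was at 25.3 and 0.524 TPM in double mutant, and 1.31 and 0.548 TPM in wild type. For both genes the first double mutant library was far above wild type and the second was below it. Hoxa5 was at 2.85 and 0.0260 TPM in double mutant, and 0.237 and 0.0480 TPM in wild type, with the same pattern. Meis1 was at 24.5 and 2.31 TPM in double mutant, and 0.405 and 0.557 TPM in wild type, so for Meis1 both double mutant libraries lay above. After scaling this held for 1 of the 4 tested members, Meis1, and for 32.9% of all genes. Pbx3 was at 0.657 and 2.92 TPM in double mutant, and 0.801 and 0.870 TPM in wild type, high only in the second double mutant library. Hoxb4 was at 4.60 and 6.87 TPM in double mutant, and 4.62 and 3.94 TPM in wild type. In deposited TPM the first double mutant library lay between the wild type pair. After scaling it lay below both, since its scaling factor was 1.5521, against 0.771 and 0.7609 in wild type.

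The first double mutant Ly6G+ library went against its label. Its neutrophil markers took 9.89% of TPM and those of its partner 34.9%, against 43.0% to 43.2% in wild type Ly6G+ cells. Its progenitor markers summed to 1107 TPM and those of its partner to 308 TPM, against 198 to 205 TPM in wild type. These markers did not move as one in the first library. Lmo2 (280.2 TPM), Flt3 (214.5 TPM) and Cd34 (195.2 TPM) were high, while Gata2 (1.23 TPM) and Tal1 (1.36 TPM) were at their lowest of the 12 libraries. The sum alone thus does not name the cells of this library. The high HoxA values of double mutant Ly6G+ cells rest on this library. The 4 members above the filter were tested in Ly6G+ cells, and limma called none of them and none of 11744 genes, 0% of all, with 1637 genes and no member at an unadjusted p under 0.05. Meis1 had a log2 fold change of 2.26 ± 0.85 (adjusted p = 0.357), and the others were Hoxa7 at 1.30 ± 1.27 (adjusted p = 0.551), Hoxa9 at 0.78 ± 1.05 (adjusted p = 0.655) and Hoxb4 at -0.16 ± 0.44 (adjusted p = 0.830). The value of Hoxb4 was positive without scaling (0.33) and without the first double mutant library (0.36). Meis1 was under 1 TPM in both wild type Ly6G+ libraries and passed the filter on low values only through the double mutant pair. Without the first double mutant library, Meis1, Hoxa7 and Hoxa9 no longer passed that filter. Without the second, the first alone set the values, with Hoxa7 at 3.07, Hoxa9 at 2.23 and Hoxb4 at -0.67. The lone library was then assumed to vary like the wild type pair. The highest adjusted p over all alternatives was 0.996 for each of these genes.

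Between cell types, wild type Ly6G+ cells held less Hoxa9 and Hoxa7 than wild type HSPC in each library (0.705 to 1.42 TPM of Hoxa9 in Ly6G+ cells, against 3.21 to 4.10 TPM in HSPC). Meis1 was also lower in both Ly6G+ libraries, and Hoxb4 was higher. After scaling, 3 of the 6 tested members lay wholly below wild type HSPC (43.6% of all genes did) and 1 wholly above (40.1%). Such separation was thus common over all genes. None of the 6 tested members was called in wild type cells, where 38.7% of all genes were. The log2 fold changes were -1.28 ± 0.80 for Hoxa9 (adjusted p = 0.231), -1.19 ± 0.97 for Hoxa7 (adjusted p = 0.358), -0.94 ± 0.95 for Meis1 (adjusted p = 0.461), 0.49 ± 0.32 for Hoxb4 (adjusted p = 0.249), 0.04 ± 0.42 for Pbx3 (adjusted p = 0.950) and -0.23 ± 0.47 for Hoxa5 (adjusted p = 0.724). This SE is pooled over all 12 libraries. Without the first RUNX1 mutant HSPC and the first double mutant Ly6G+ library, Hoxa9 (adjusted p = 0.00131), Hoxa7 (adjusted p = 0.00985) and Hoxb4 (adjusted p = 0.0302) passed with the same fold changes. Without the first double mutant Ly6G+ library alone, Hoxa9 (adjusted p = 0.0218) and Hoxb4 (adjusted p = 0.0491) passed. In this comparison 5 of 15 neutrophil, 1 of 8 monocyte, 4 of 8 B cell and 3 of 6 tested T and natural killer cell markers were called higher (17.6% of all genes), and 4 of 14 progenitor markers and 1 T and natural killer cell marker lower (21.1%). Their part in the differences of the 7 genes was not tested. Over all alternatives the adjusted p ranged between 0.000958 and 0.517 for Hoxa9, between 0.00408 and 0.658 for Hoxa7 and between 0.0172 and 0.560 for Hoxb4.

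In double mutant cells no member was called between Ly6G+ cells and HSPC, where 28.6% of all genes were. Pbx3 was at 0.657 and 2.92 TPM in double mutant Ly6G+ cells, against 5.53 and 3.82 TPM in double mutant HSPC (-0.995 ± 0.42, adjusted p = 0.111). This value was -0.24 without the first double mutant Ly6G+ library and -1.75 without the second, each with a lone library left in that group. Hoxa9 had -1.22 ± 0.80 (adjusted p = 0.279) and Hoxa7 -1.19 ± 0.97 (adjusted p = 0.387). Without the first RUNX1 mutant HSPC and the first double mutant Ly6G+ library, Hoxa9 was at -2.67, Hoxa7 at -2.95, Hoxa5 at -0.99 and Hoxb4 at 0.77. This leaves 1 double mutant Ly6G+ library assumed to vary like the other groups. In the same comparison of all libraries 8 of 15 neutrophil, 3 of 8 monocyte, 2 of 8 B cell and 2 of 6 tested T and natural killer cell markers were called higher (12.7% of all genes). So were 1 of 14 progenitor and 1 of 8 megakaryocyte markers, and 2 progenitor markers were called lower (15.8%). The term for a genotype effect that differs by cell type was called for no member (0.0608% of all genes), and was 1.24 ± 1.34 for Meis1 (adjusted p = 0.817) and -1.04 ± 0.60 for Pbx3 (adjusted p = 0.642). These values rest on single libraries. Without the first double mutant Ly6G+ library the term was 0.069 for Meis1 and -0.28 for Pbx3, beside -1.76 for Hoxa7 and -1.39 for Hoxa9. Without the second, that of Pbx3 was -1.79. Either fit leaves a lone double mutant Ly6G+ library, without a spread of its own.

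Of the genes that keep HOX clusters on or off, 1 was called in double mutant against wild type HSPC, beside 10.9% of all genes. Of 15 activators, including Kmt2a and its partners, all were tested in HSPC, and against wild type none was called in CBL mutant or RUNX1 mutant cells. Kat6a, a histone acetyltransferase active on HOX genes, was the 1 called in double mutant HSPC, and it was lower (log2 fold change -0.65 ± 0.15, adjusted p = 0.0418). It was also called lower against RUNX1 mutant HSPC (-0.85 ± 0.15, adjusted p = 0.0260). Of 16 Polycomb genes none was called against wild type in any mutant HSPC, and Cbx8 was called lower in double mutant than in CBL mutant HSPC (-1.21 ± 0.23, adjusted p = 0.0413). The median log2 fold change in double mutant HSPC against wild type was 0.02 for the activators and 0.04 for Polycomb genes, against 0.035 over all genes. Of 3 tested noncoding RNAs of the clusters, Hoxaas3, which overlaps Hoxa7, was at 7.73 and 7.31 TPM in double mutant, 3.15 and 0.444 TPM in RUNX1 mutant, and 1.67 and 0.808 TPM in wild type HSPC. It was called higher in double mutant than in RUNX1 mutant HSPC (1.72 ± 0.41, adjusted p = 0.0475), and against wild type it had 1.53 ± 0.41 (adjusted p = 0.0562).

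Of 9 genes known as targets of HOX and MEIS proteins, 1 was called higher in double mutant than in wild type HSPC and none lower, beside 4.77% of all genes called higher, with a median log2 fold change of 0.49. That gene was Cd34, a surface marker of progenitors, at 203.1 and 129.4 TPM in double mutant, against 23.4 and 22.6 TPM in wild type HSPC (2.16 ± 0.52, adjusted p = 0.0448). It is also one of the 14 progenitor markers. Trib2, a pseudokinase that drives myeloid leukaemia, was called lower in double mutant than in RUNX1 mutant HSPC (-1.17 ± 0.26, adjusted p = 0.0409), as were 3.04% of all genes. Trib2 was at 0.507 and 0.0896 TPM in double mutant, and 2.99 and 1.33 TPM in RUNX1 mutant HSPC. It was under 1 TPM in all other HSPC libraries, so it passed the filter on low values only through the RUNX1 mutant pair, whose libraries differ widely. Between wild type Ly6G+ cells and HSPC, 3 targets were called lower, Cd34 (-1.95 ± 0.60, adjusted p = 0.0335), Myb (-1.32 ± 0.41, adjusted p = 0.0343) and Lmo2 (-1.05 ± 0.26, adjusted p = 0.0141). In the same comparison, where 21.1% of all genes were called lower and 17.6% higher, 5 activators were called lower and 1 higher, with Dpy30, a subunit of KMT2 complexes, at -1.59 ± 0.20 (adjusted p = 0.00110) and Kat6a at 0.98 ± 0.17 (adjusted p = 0.00296). Polycomb genes had 3 called higher and none lower, among them Ezh1, a Polycomb methyltransferase (1.25 ± 0.17, adjusted p = 0.00140). The TALE genes Pknox1 (1.38 ± 0.19, adjusted p = 0.00150) and Pbx2 (1.15 ± 0.30, adjusted p = 0.0182) were called higher in wild type Ly6G+ cells.

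Markers of other cells moved with these groups too. In double mutant HSPC 10 of 15 neutrophil markers were called lower than in wild type (6.11% of all genes were), with a median log2 fold change of -2.56. Of the progenitor markers, 1 was higher (Cd34) and 2 were lower, Mecom (-5.59 ± 0.27, adjusted p = 0.000292), a regulator of stem cells, and Ly6a (-1.98 ± 0.25, adjusted p = 0.0128), the stem cell antigen Sca-1. In CBL mutant HSPC 3 of 5 tested T and natural killer cell markers were called higher than in wild type (0.314% of all genes were), namely Gzma, Lck and Trbc2. Of 8 such markers 5 reached 1 TPM in CBL mutant HSPC, against 3 of 8 in wild type. In double mutant HSPC 4 of the 5 were called lower than in CBL mutant HSPC (2.14% of all genes were). Summed TPM of the 8 markers was 12.6 to 15.0 in double mutant, 182 to 292 in CBL mutant and 182 to 185 in wild type HSPC. The sum is thus not raised in both CBL mutant libraries. In wild type most of it was Nkg7, at 178.5 and 179.5 TPM, against 94.1 and 229.1 TPM in CBL mutant HSPC. Of the other marker lists, the double mutant had 1 of 8 monocyte markers called higher than in wild type (4.77% of all genes). It had 1 B cell, 1 T and natural killer cell, 1 erythroid and 1 megakaryocyte marker called lower (6.11%). That megakaryocyte marker, Gp1bb (-2.09 ± 0.23, adjusted p = 0.0086), went against its list, which had a median log2 fold change of 0.49. Summed TPM of the 8 megakaryocyte markers was 14.7 to 20.3 in CBL mutant, 528.1 and 83.1 in RUNX1 mutant, 73.2 to 131.6 in double mutant, and 31.4 in both wild type HSPC libraries. Against wild type, Mecom and 1 megakaryocyte marker were called lower in CBL mutant HSPC (0.242% of all genes), and 1 progenitor marker in RUNX1 mutant HSPC (0.0403%). How far any of these accounts for the values of the 7 genes was not tested.

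The order of the 6 groups by mean TPM differed between members, and neighbours in the order often overlapped. Hoxa9 ran CBL mutant HSPC (16.7 TPM), double mutant HSPC (10.1), double mutant Ly6G+ (7.64), RUNX1 mutant HSPC (6.97), wild type HSPC (3.65) and wild type Ly6G+ (1.06). Of these neighbours, CBL mutant and double mutant HSPC did not overlap, nor did both wild type groups, and the groups between did. Pbx3 ran double mutant HSPC (4.67 TPM), RUNX1 mutant HSPC (2.78), double mutant Ly6G+ (1.79), wild type Ly6G+ (0.836), wild type HSPC (0.798) and CBL mutant HSPC (0.756), and only the first 2 groups did not overlap. Wild type Ly6G+ cells were lowest for Hoxa5, Hoxa7, Hoxa9, Hoxa10 and Meis1, whereas CBL mutant HSPC were lowest for Hoxb4 and Pbx3.

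Over the 12 libraries the HoxA members varied together. Pearson's r of the scaled log2 levels was 0.935 between Hoxa5 and Hoxa7, 0.916 between Hoxa7 and Hoxa9 and 0.909 between Hoxa5 and Hoxa9. Hoxb4 went against Hoxa9 with r = -0.771, Meis1 went with Hoxa5 at 0.805, and Pbx3 had its highest value with Hoxb4, 0.516. These values describe 12 points that share groups and library makeup, with wide spread in 2 groups. Among 9209 genes of sufficient level, those most like Hoxa7 were Bcor (0.977), Smarcd1 (0.976) and Zfand1 (0.968), and those most like Hoxa9 were Ccdc40 (0.969), Zc3hav1l (0.962) and Dnmt3b (0.955). Hoxa5 was most like Mbtd1 (0.965), Cxxc5 (0.953) and Tmem191c (0.950). Most like Hoxb4 were Afdn (0.924), Fam210b (0.905) and Ppt2 (0.900), and most like Meis1 were Rfx5 (0.968), Ppp1r13b (0.960) and Gemin8 (0.952). Pbx3 was most like Slc16a10 (0.957), Ecm1 (0.953) and Lrp1 (0.931).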

How the data were processed

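RNA was measured in 12 libraries. The authors deposited 1 table of TPM, without read counts, for 28987 genes. The tools named in the submitters' processing notes are kallisto, bcl2fastq and CASAVA 1.8, with the build mm10; how transcripts were joined to genes is not given in the sources used here. TPM carry no depth, so no counting interval is given.

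TPM were scaled with trimmed mean factors (unweighted, trim 0.3 of log ratios and 0.05 of levels; factors 0.7143 to 1.5521). Genes at 1 TPM or more in at least 2 libraries of a fit were tested on log2(TPM + 1) with limma 3.58.1 in R 4.3.3 (trend, robust), two-sided, with Benjamini-Hochberg adjustment over all genes tested. The HSPC groups shared 1 fit of 8 libraries, Ly6G+ groups 1 of 4, and comparisons between cell types 1 of 12. The code was tested on simulated data with equal spread in all groups, so that test does not cover the unequal spread between groups seen here. Replicate numbers were not used as pairs.

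The members and gene lists were chosen with earlier results of these data known. All members are named. Of each other list, up to 4 called genes in each direction with the smallest p are named, or up to 2 where none is called, and not all of these are printed. The result of 1 gene of these lists is not reported here. The 3 genes most like a member are those with the highest Pearson's r. Promoter sequences are from RefSeq, and 6 of 7 members matched. Alternatives were other scalings, pseudocounts, filters, fits, a replicate block and leaving out each library in turn.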

Additional observations from a re-analysis of the deposited data

How the results depend on the processing

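The group-wise spread rests on 2 libraries a group, so counts of called members moved with the choice of fit. Against wild type HSPC, CBL mutant had 0 members called and 2 with array weights or in a fit of the compared groups alone, and 0 to 2 when 1 library was left out. RUNX1 mutant had 0, and members passed only without its second library, where the first alone stood for the group. Double mutant had 1, but 2 on unscaled TPM, 0 with a filter at 5 TPM, which drops Pbx3, 3 with array weights, 4 in a fit of the compared groups alone, 0 in a fit of all 12 libraries, and 0 to 3 with 1 library left out. Double mutant against CBL mutant had 2, but 1 with a pseudocount of 5 or no filter, 0 with a filter at 5 TPM or all 12 libraries, and 0 to 3 with 1 left out. With 1 library left out, double mutant against RUNX1 mutant had 0 to 3, the non-additive term 0 to 2, double mutant against wild type Ly6G+ cells 0 to 3, and the genotype by cell type term 0 to 1, all from 0. Between wild type cell types the count of 0 became 3 with array weights, 4 with the compared groups alone, 3 without both first libraries, of RUNX1 mutant HSPC and double mutant Ly6G+ cells (left out after the data were seen), and 0 to 2 with 1 left out. Between double mutant cell types 0 became 4 without both and 0 to 3 with 1 left out. Of the values for single members, 1046 kept their direction and side of the threshold, 58 newly passed it, 25 no longer passed it and 44 changed sign, all 44 uncalled. Leaving out a library of a compared group leaves a lone one there, and counts from such fits do not measure the spread of that group. Apart from what fewer libraries or genes bring by construction, the cause of these moves was not tested.

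Replicate numbers were not taken as pairs, since 6 of 15 pairs of groups, and not all, had a correlation of deviations over 0.1 (range -0.02 to 0.46). Among the mutant HSPC groups it was 0.16 (CBL and RUNX1), 0.185 (CBL and double mutant) and 0.126 (RUNX1 and double mutant), and between RUNX1 mutant HSPC and double mutant Ly6G+ cells 0.464. With a replicate block, 1 member in place of 2 was called between double mutant and CBL mutant HSPC, and Hoxb4 had an adjusted p of 0.051.

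Log2 values that changed sign were small or rested on 1 library. With 1 library left out, Hoxa9 in RUNX1 mutant against wild type HSPC ranged from -0.51 to 0.70, and Hoxb4 in double mutant against wild type HSPC from -0.055 to 0.188. In double mutant against CBL mutant HSPC, Meis1 ranged from -0.95 to 0.29 and Hoxa7 from -0.19 to 0.62. In double mutant against RUNX1 mutant HSPC, Hoxa5 ranged from -0.43 to 0.39 (0.032 with a pseudocount of 0.1) and Hoxa7 from -0.24 to 1.23. The non-additive term of Hoxa7 ranged from -1.33 to 0.14. Hoxb4 in double mutant against wild type Ly6G+ cells ranged from -0.67 to 0.36 and was 0.33 on unscaled TPM. In double mutant Ly6G+ cells against HSPC the ranges were -0.99 to 0.51 for Hoxa5, -2.95 to 0.57 for Hoxa7, -2.67 to 0.23 for Hoxa9, -0.25 to 0.77 for Hoxb4 and -0.87 to 1.47 for Meis1, which was -0.87 without both first libraries. The genotype by cell type term ranged from -0.76 to 0.75 for Hoxa5 (0.005 on unscaled TPM, 0.019 with a pseudocount of 5), from -1.76 to 1.77 for Hoxa7 (-0.009 with RLE scaling, -0.008 with a pseudocount of 0.1, -0.012 with one of 5, -0.042 with upper-quartile scaling, -0.080 on unscaled TPM, -1.76 without both), from -1.39 to 1.51 for Hoxa9 (-0.015 on unscaled TPM, -0.059 with a pseudocount of 0.1, -1.39 without both) and from -0.74 to 0.29 for Hoxb4 (0.29 without both).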
